A study of Mus musculus with 6 samples.

Results

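The genes described here are 10 members of the BCL-2 family, matched by Ensembl identifier to rows of a count table from sorted Paneth cells (PCs). They are the effectors Bax and Bak1, the guardians Bcl2, Bcl2l1 and Mcl1, and the BH3-only genes Bid, Bad, Bik, Bbc3 and Pmaip1. All 10 were found among the 55414 identifiers of the table, and all 10 were among the 13026 genes with enough counts to be tested. RNA-seq had been performed on PCs from the small intestine of C57BL/6J mice, 15 h after the animals were given tumour necrosis factor (TNF) or, as controls, phosphate-buffered saline (PBS). Every animal in both groups, controls included, was labelled IFNAR1 KO, a knockout of a chain of the type I interferon receptor, and no mice with an intact receptor were analysed here. There were 3 PBS and 3 TNF libraries, each from its own mouse. The sources used here do not give the age and sex of the mice, the dose and route of TNF or the gates of the sort.

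BCL-2 family proteins decide whether the outer membrane of the mitochondrion stays closed. When BAX or BAK is activated, it forms pores, cytochrome c leaves the mitochondrion and caspases are switched on. BCL-2, BCL-XL (encoded by Bcl2l1) and MCL-1 hold BAX and BAK in check, and the BH3-only proteins either occupy these guardians or activate the effectors directly. Much of this control acts on the proteins, through cleavage of BID, phosphorylation of BAD and rapid turnover of MCL-1, and none of that is visible in transcript counts. Gene-level counts also do not separate splice forms of opposite activity, such as those of Bcl2l1 and Mcl1.

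Total counts were 12747484 to 17039511 per library. Ifnar1 itself had 61 to 159 counts in the 6 libraries, and since the deleted part of the gene is not stated and no unmodified mice were analysed, this gene-level count does not check the genotype. The 12 PC markers, whose sum is mostly Lyz1 and Defa24, summed to 343713 to 422525 in PBS and 255255 to 554283 in TNF. Of these, Lyz1 (lysozyme) was at 134153 to 226165 and Mmp7 (the protease that matures alpha-defensins) at 5576 to 13712 counts per 1e6 counts (CPM) across the 6 libraries. Unless stated otherwise, CPM values carry edgeR scaling factors from the trimmed mean of M-values (TMM). TNF replicate 1 stood apart from its group. On the first principal component (48.9% of the variance over tested genes), it lay at -39.3, next to the PBS libraries at -35.8 to -28.7, while TNF replicates 2 and 3 lay at 63.0 and 73.1. It was kept as labelled, and results are given with and without it. Some PC markers also differed along this division, in both directions. With TNF replicate 1 left out, 2 of the 12 rose, Nupr1 (log2 fold change 2.11) and Pla2g2a (1.41), and 2 fell, Clps (-2.13) and Habp2 (-1.25). This is beside 9.10% of all genes higher and 5.40% lower (adjusted p under 0.05 in edgeR). All 4 were named after their values were seen, and over all 6 libraries none passed. Several markers of other cell types differed along the same division. The summed level of 10 stem and progenitor markers was 2883 to 3618 CPM in PBS, 5025 CPM in TNF replicate 1, and 1147 and 1020 CPM in TNF replicates 2 and 3. Most of that sum in PBS and in TNF replicate 1 is Olfm4, at 1925 to 2374, 3887, 233 and 272 CPM in the same order. The other 9 markers summed to 958 to 1244 CPM in PBS and to 1137, 915 and 748 CPM in TNF replicates 1 to 3, so for them TNF replicate 1 was inside the PBS range. Lgr5, Sox9, Slc12a2 and Pcna did not follow the division. Ascl2, Smoc2, Axin2, Mki67 and Top2a were lower in TNF replicates 2 and 3 than in every other library. These 9 were named after their values were seen. Without TNF replicate 1, 5 of the 10 fell and 0 rose, beside 5.40% and 9.10% of all genes (adjusted p under 0.05 in edgeR). The 11 enterocyte markers summed to 392 to 471 CPM in PBS and to 425, 135 and 103 CPM in TNF replicates 1 to 3. The 7 goblet cell markers summed to 12307 to 13509 CPM in PBS and to 15751, 7864 and 12008 CPM in TNF replicates 1 to 3. Spink4 is the largest part of that sum. Fcgbp, Tff3, Zg16 and Clca1 were lower in TNF replicates 2 and 3 than in every other library, and Muc2, Spink4 and Agr2 were not. These 7 were named after their values were seen. Without TNF replicate 1, 4 of the 7 fell and 0 rose, beside 5.40% and 9.10% of all genes (adjusted p under 0.05 in edgeR). The 6 tuft cell markers summed to 405 to 1414 CPM in PBS and 482 to 933 CPM in TNF. The 7 enteroendocrine markers summed to 48.2 to 118 CPM in PBS and 46.4 to 139 CPM in TNF. Of the 9 immune markers, Cd8a and Jchain had no count in any library, and the list summed to 22.1 to 54.4 CPM in PBS and 35.6 to 45.2 CPM in TNF. Of the 4 endothelial and erythroid markers, Cdh5, Hba-a1 and Hbb-bs had no count, and the list did not exceed 0.391 CPM in any library. In such bulk samples, fewer cells of a type and less RNA per cell cannot be told apart.

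Bax had the largest fold change of the 10 members, and Bad and Pmaip1 the next largest in proportion to their errors. Over all 6 libraries, 7 members had a higher and 3 a lower level in TNF, with a median log2 fold change of 0.41 beside 0.00 over all tested genes. With edgeR's quasi-likelihood test, 0 of the 10 members passed an adjusted p under 0.05, as did 0% of all genes tested. At an unadjusted p under 0.05 there were 3 members, Bax, Bad and Pmaip1, all higher in TNF, against 12.3% of all genes (8.25% higher and 4.00% lower). Without TNF replicate 1, 4 members passed an adjusted p under 0.05 and rose, namely Bax, Bak1, Bad and Pmaip1, and none fell, against 14.5% of all genes (9.10% higher and 5.40% lower). At an unadjusted p under 0.05 it gave 5 members higher and 1 lower, against 28.4% of all genes (16.1% higher and 12.4% lower). In that comparison the median of the members was 0.69, beside -0.01 over all genes. DESeq2 on all 6 libraries passed 1 member, Bax (higher), against 1.71% of all genes (1.46% higher and 0.251% lower), and edgeR without a low-count filter likewise passed Bax, against 2.94% (2.10% higher and 0.849% lower). The libraries in which these members were high, TNF replicates 2 and 3, were those with the low Olfm4 and enterocyte marker levels above. Several other stem and progenitor markers and several goblet cell markers were also low there. The part of these differences in the results was not tested. The groups were separate, with no overlap between libraries, for 2 members, Bax and Mcl1, both higher in TNF, against 16.9% of all genes (9.07% higher and 7.82% lower). Scaled by library size instead, the libraries overlapped for both of these, and 1 other member, Bcl2, did not overlap and was lower in TNF, against 14.6% of all genes (3.32% higher and 11.2% lower). That scaling put the median log2 fold change of all genes at -0.11 and that of the members at 0.39.

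**Figure D1:**
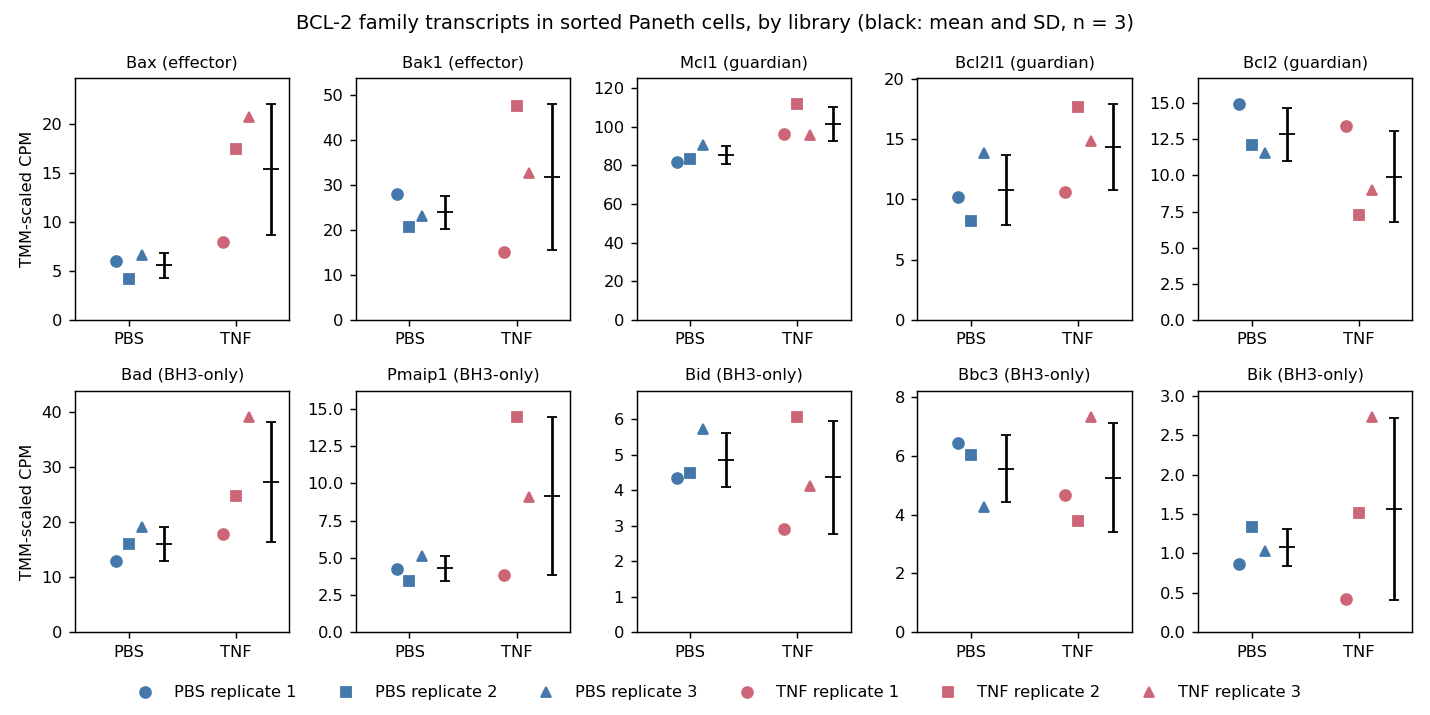
TMM-scaled CPM (linear axis from 0) of the 10 members in 3 PBS (blue) and 3 TNF (red) libraries, with a marker shape for each replicate and black bars for the mean and SD. For Bax, the 3 TNF libraries (7.90, 17.5 and 20.7 CPM) lie above the 3 PBS libraries (4.14 to 6.61 CPM), and for most other members TNF replicate 1 lies within or below the PBS range.

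Bax encodes the effector that moves from the cytosol to mitochondria (ENSMUSG00000003873, GRCm39 chromosome 7, 45111015 to 45116325, minus strand). In the order of replicates 1 to 3, which is kept below, the PBS libraries held 5.99, 4.14 and 6.61 CPM and the TNF libraries 7.90, 17.5 and 20.7 CPM. All TNF libraries were above all PBS libraries, but TNF replicate 1 was much closer to PBS than to its own group. The means were 5.58 ± 1.29 and 15.4 ± 6.65 CPM (SD, n = 3), a 2.76-fold difference (log2 fold change 1.46 with an SE of 0.38, adjusted p of 0.270 in edgeR). Bax rose 3.46-fold when TNF replicate 1 was left out (log2 fold change 1.79 with an SE of 0.28, adjusted p of 0.00160 in edgeR). With DESeq2 the adjusted p was 0.0388 and with edgeR without a low-count filter 0.00314. Across every alternative it lay between 0.00160 and 0.897. The log2 fold change lay between 1.20 and 1.79 in all of them. Scaled by library size, TNF replicate 1 (6.30 CPM) lay inside the PBS range of 4.58 to 7.06 CPM. Exons of Bax overlap on the same strand those of Gm45808, a gene model with 0 counts in every library. How reads in the shared exons were assigned is not given, so the level of Bax is uncertain by that amount.

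Bak1 encodes the second effector, which resides on the mitochondrial membrane (ENSMUSG00000057789, chromosome 17, 27238784 to 27247983). It was at 27.9, 20.6 and 23.0 CPM in PBS and at 15.0, 47.4 and 32.5 CPM in TNF. TNF replicate 1 was below every PBS library, and TNF replicates 2 and 3 were above every one. The means, 23.8 ± 3.72 and 31.6 ± 16.2 CPM, differed by less than the spread in TNF (log2 fold change 0.41 with an SE of 0.37, adjusted p of 0.678 in edgeR), and the sign turned without TNF replicate 2 (-0.04). Without TNF replicate 1, Bak1 rose 1.70-fold (log2 fold change 0.77 with an SE of 0.23, adjusted p of 0.0442 in edgeR, and 0.0442 to 0.984 across every alternative). Reads of Ggnbp1 and Gm50253, which overlap exons of Bak1 on the other strand, did not exceed 13 counts in a library.

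Bax, Bbc3 and Pmaip1 are textbook targets of p53, and their promoters were therefore searched for the p53 decamer. The 250 bases before the start of each gene's canonical GENCODE transcript, called promoters here, were read from GRCm39, and both strands were searched. For Bbc3, Bad, Bcl2l1 and Bid this window lies inside the annotated gene. Other annotated transcripts of these genes start upstream of it, and their starts were not searched. The decamer occurred in 3 of the 10 members, these same genes, with 1 match each, compared with 6.35% of 13002 promoters of tested genes. Single decamers were searched, whereas a full p53 element is a pair of them. The sequences of Bax and Bbc3 are shown because both hold the motif while their log2 fold changes over all 6 libraries were 1.46 and -0.09, with the decamer in capitals. In Bbc3 the capitals also mark the core of the interferon-stimulated response element, which 2.94% of promoters hold and which does not overlap the decamer. The Bax window is chr7:45116326-45116575 on the minus strand and that of Bbc3 is chr7:16042421-16042670 on the plus strand, both written 5′ to 3′ and ending at the base before the start.
Bax: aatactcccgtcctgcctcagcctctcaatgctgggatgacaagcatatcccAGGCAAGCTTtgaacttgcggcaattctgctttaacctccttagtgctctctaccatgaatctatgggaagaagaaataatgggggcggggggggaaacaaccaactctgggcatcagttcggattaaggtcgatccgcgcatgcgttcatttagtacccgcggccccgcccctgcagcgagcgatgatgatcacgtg
Bbc3: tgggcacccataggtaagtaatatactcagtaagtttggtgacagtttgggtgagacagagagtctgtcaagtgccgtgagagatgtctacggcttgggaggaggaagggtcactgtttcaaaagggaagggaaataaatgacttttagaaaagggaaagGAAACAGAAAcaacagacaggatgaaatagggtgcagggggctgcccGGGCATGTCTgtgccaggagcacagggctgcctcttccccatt
The first base of the decamer lies 198 bases before the start in Bax, 43 in Bbc3 and 103 in Pmaip1. A search for an NF-kB motif (4.01% of promoters), for TTCNNNGAA (6.62%) and for TGANGCAA (2.68%), the last bound by ATF4 in amino acid stress, matched none of the 10 windows, and GGGCGG, the box bound by SP1 (47.0%), matched 8 of them. A match is a description of letters and not evidence of binding.

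Of the guardians, Mcl1 was the most abundant (ENSMUSG00000038612, chromosome 3, 95566026 to 95570487). It encodes a protein with a very short life. Mcl1 was at 81.6, 83.4 and 90.6 CPM in PBS and at 96.4, 112 and 95.8 CPM in TNF. All TNF libraries were above all PBS libraries by a small margin, which was lost under library-size scaling, where TNF replicate 1 was at 76.8 CPM and PBS at 78.1 to 96.7 CPM. The means were 85.2 ± 4.77 and 101 ± 8.92 CPM (log2 fold change 0.25 with an SE of 0.19, adjusted p of 0.632 in edgeR), and 0.30 without TNF replicate 1 (SE of 0.19, adjusted p of 0.341 in edgeR).

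Bcl2l1, whose long splice form is BCL-XL, lies on chromosome 2 (ENSMUSG00000007659, 152622582 to 152673655). It was at 10.2, 8.21 and 13.9 CPM in PBS and at 10.6, 17.7 and 14.8 CPM in TNF. TNF replicate 1 lay inside the PBS range, and TNF replicates 2 and 3 were above it, replicate 3 by less than 1 CPM. The log2 fold change was 0.42 (SE of 0.29, adjusted p of 0.590 in edgeR), and 0.61 without TNF replicate 1 (SE of 0.27, adjusted p of 0.165 in edgeR).

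Bcl2 was the guardian with a lower level in TNF (ENSMUSG00000057329, chromosome 1, 106465908 to 106642060). It was at 14.9, 12.1 and 11.5 CPM in PBS and at 13.4, 7.29 and 9.02 CPM in TNF. TNF replicates 2 and 3 were below every PBS library and TNF replicate 1 was not. The means were 12.8 ± 1.82 and 9.91 ± 3.16 CPM (log2 fold change -0.38 with an SE of 0.29, adjusted p of 0.628 in edgeR), and -0.64 without TNF replicate 1 (SE of 0.27, adjusted p of 0.137 in edgeR). Scaled by library size, the TNF libraries (10.7, 8.74 and 8.25 CPM) were all below the PBS libraries (12.3 to 14.3 CPM), with a log2 fold change of -0.53. The 2 libraries with the lowest Bcl2 were also those with the lowest Olfm4 level and enterocyte marker sum given above. Fcgbp, Tff3, Zg16 and Clca1 of the goblet cell markers were also lowest there. The sum of the 9 other stem and progenitor markers was close to PBS in TNF replicate 2. In that library Ascl2, Smoc2, Axin2, Mki67 and Top2a were below every PBS library, and Lgr5, Sox9, Slc12a2 and Pcna were not. The part of other cells in the level of Bcl2 was not tested.

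Among the BH3-only genes, Pmaip1 and Bad had the higher values in TNF. Pmaip1 encodes NOXA, which binds MCL-1 (ENSMUSG00000024521, chromosome 18, 66591604 to 66598636). It was at 4.26, 3.47 and 5.14 CPM in PBS and at 3.82, 14.5 and 9.10 CPM in TNF. TNF replicate 1 lay within the PBS range, and TNF replicates 2 and 3 lay well above it. The means were 4.29 ± 0.837 and 9.13 ± 5.33 CPM, a 2.14-fold difference (log2 fold change 1.10 with an SE of 0.46, adjusted p of 0.39 in edgeR). Pmaip1 rose 2.79-fold when TNF replicate 1 was left out (log2 fold change 1.48 with an SE of 0.33, adjusted p of 0.0127 in edgeR, and 0.0127 to 0.919 across every alternative), and without TNF replicate 2 the log2 fold change was 0.56.

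Bad encodes a BH3-only protein that growth factor signalling keeps phosphorylated and inactive (ENSMUSG00000024959, chromosome 19, 6918902 to 6929280). It was at 12.8, 16.1 and 19.0 CPM in PBS and at 17.8, 24.8 and 39.1 CPM in TNF. TNF replicate 1 was inside the PBS range and the other two TNF libraries were above it. The means of 16.0 ± 3.10 and 27.2 ± 10.9 CPM differed 1.70-fold (log2 fold change 0.77 with an SE of 0.31, adjusted p of 0.370 in edgeR). Bad rose 2.02-fold when TNF replicate 1 was left out (log2 fold change 1.01 with an SE of 0.26, adjusted p of 0.0220 in edgeR, and 0.0220 to 0.920 across every alternative). Exons of Bad overlap those of Gpr137 on the other strand, which had 93 to 194 counts per library beside 178 to 506 for Bad, and without knowledge of the strand setting these reads cannot be fully told apart.

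Bbc3 encodes PUMA, which binds all guardians (ENSMUSG00000002083, chromosome 7, 16042318 to 16052130). It was at 6.42, 6.01 and 4.26 CPM in PBS and at 4.67, 3.77 and 7.33 CPM in TNF. The lowest and the highest of the 6 values were both TNF libraries, replicates 2 and 3. The log2 fold change was -0.09 (SE of 0.38, adjusted p of 0.941 in edgeR) and 0.00 without TNF replicate 1 (SE 0.40).

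Bid encodes the protein that caspase-8 cleaves downstream of death receptors (ENSMUSG00000004446, chromosome 6, 120862525 to 120894171). It was at 4.33, 4.47 and 5.73 CPM in PBS and at 2.89, 6.07 and 4.11 CPM in TNF, and the groups overlapped. The log2 fold change was -0.15 (SE of 0.39, adjusted p of 0.905 in edgeR) and 0.10 without TNF replicate 1 (SE 0.38). Bid shares exon bases on the other strand with Bcl2l13, a more distant family member, which had 226 to 569 counts per library beside 34 to 124 for Bid, so its level is uncertain.

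Bik encodes a BH3-only protein of the endoplasmic reticulum (ENSMUSG00000016758, chromosome 15, 83411056 to 83428836). With only 5 to 34 counts per library, it was at 0.866, 1.33 and 1.03 CPM in PBS and at 0.425, 1.52 and 2.74 CPM in TNF. TNF replicate 1 was the lowest library and TNF replicate 3 the highest, so the TNF libraries spanned the whole PBS range. The log2 fold change was 0.53 (SE of 0.74, adjusted p of 0.806 in edgeR) and 0.99 without TNF replicate 1 (SE of 0.69, adjusted p of 0.392 in edgeR).

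**Figure D2:**
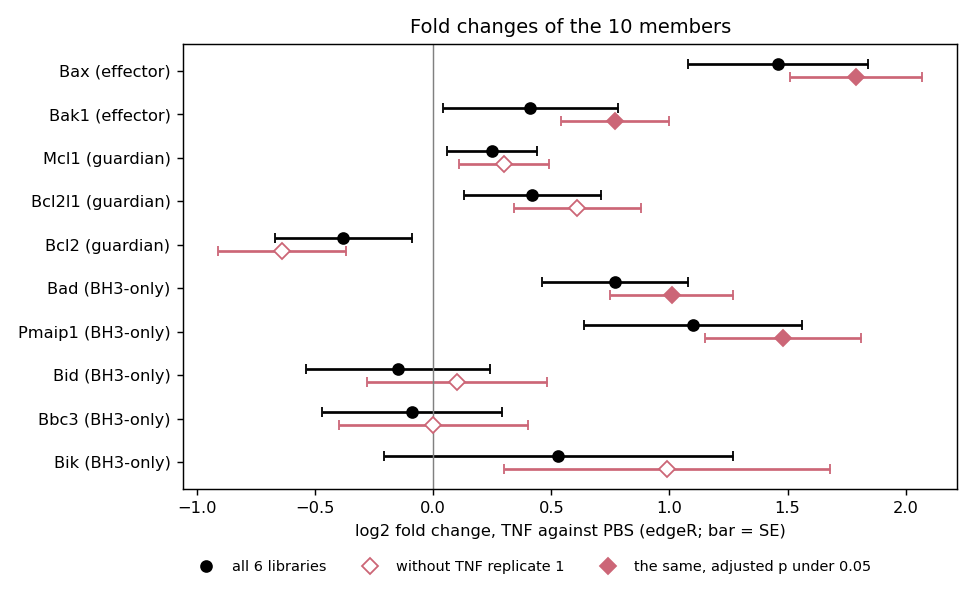
log2 fold change of TNF against PBS for each member (edgeR, bars are the SE), over all 6 libraries (black) and without TNF replicate 1 (red diamonds, filled where the adjusted p was under 0.05). Bax, Bak1, Bad and Pmaip1 carry filled diamonds at 1.79, 0.77, 1.01 and 1.48, and Bcl2 is the member furthest below 0 (-0.38 and -0.64).

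Levels were compared between members as CPM per kilobase (kb) of the longest annotated transcript, which takes no account of the splice forms in use. In PBS the order was Mcl1 (24.4 ± 1.37), Bak1 (9.99 ± 1.56), Bad (7.19 ± 1.39), Bax (5.07 ± 1.17), Bcl2l1 (3.07 ± 0.819), Bbc3 (2.07 ± 0.427), Bcl2 (1.77 ± 0.252), Pmaip1 (1.57 ± 0.306), Bid (1.06 ± 0.169) and Bik (0.221 ± 0.0490), all as mean ± SD with n = 3. Mcl1 was thus well above every other member in every library. Neighbours in this order overlapped between their PBS libraries from Bad to Pmaip1, and were separate for Mcl1 and Bak1, Bak1 and Bad, Pmaip1 and Bid, and Bid and Bik. In TNF, Bax held rank 2 (14.0 ± 6.05 CPM per kb), after Mcl1 (29.0 ± 2.55) and beside Bak1 (13.2 ± 6.79) and Bad (12.3 ± 4.89). The ranges of Bax, Bak1 and Bad over the TNF libraries overlapped, so their order in TNF is not resolved. Pmaip1 held rank 8 in PBS and rank 6 in TNF (3.34 ± 1.95 CPM per kb), where it overlapped its neighbours, and per kb of the union of exons its ranks were 6 and 5.

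**Figure D3:**
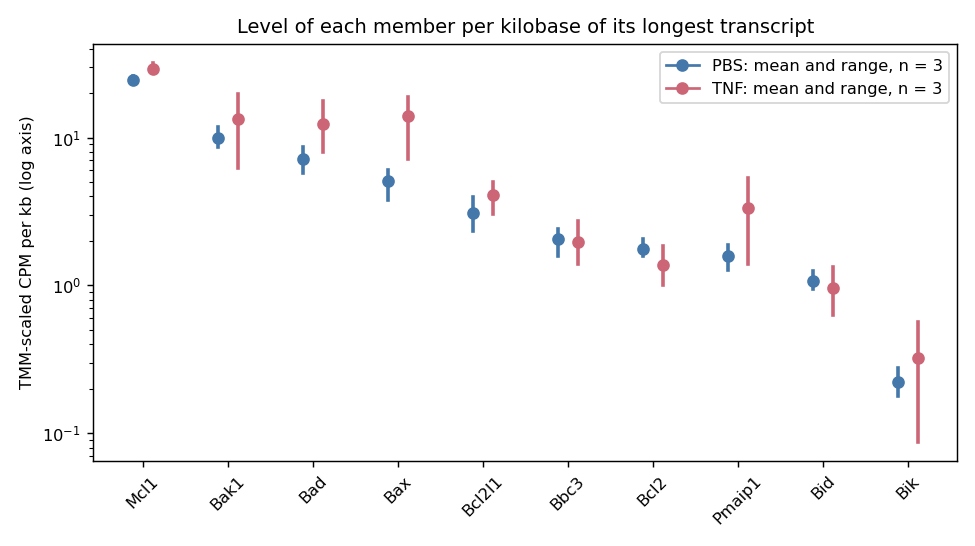
TMM-scaled CPM per kb of the longest transcript (log axis) for the 10 members in the order of their PBS means, with dots for the mean and lines for the range of 3 libraries in PBS (blue) and TNF (red). Mcl1 lies highest in both groups (24.4 and 29.0), and the TNF ranges of Bak1, Bad and Bax span 6.27 to 19.8.

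The balance between pro- and anti-apoptotic transcripts was described by ratios of counts per kb within a library, which do not depend on how libraries are scaled. The ratio of Bax to Bcl2l1 was 1.87, 1.61 and 1.52 in PBS and 2.38, 3.16 and 4.46 in TNF. Every TNF library, replicate 1 included, had more Bax per Bcl2l1 than any PBS library, and the mean log2 ratio was 0.73 ± 0.15 in PBS and 1.69 ± 0.46 in TNF (SD, n = 3). The ratio of Bax to Mcl1 was 0.233, 0.158 and 0.232 in PBS and 0.260, 0.497 and 0.685 in TNF. Here TNF replicate 1 exceeded PBS by a margin far smaller than the spread between PBS libraries, and the mean log2 ratio was -2.29 ± 0.32 in PBS and -1.17 ± 0.71 in TNF. For both effectors together against the 3 guardians, the ratio was 0.605, 0.445 and 0.497 in PBS and 0.414, 0.940 and 0.986 in TNF. TNF replicate 1 had the lowest value of all 6 libraries and TNF replicates 2 and 3 the highest, so the groups overlapped. The last values are close to equal amounts only per kb of the longest transcript. In TNF replicates 2 and 3 the ratio was 0.804 and 0.788 per kb of the union of exons. Without a length it was 0.475 and 0.445. These ratios combine members chosen with results known and were not tested. Within the effectors, the share of Bax was 30.3% to 38.4% in PBS and 53.4%, 44.5% and 58.0% in TNF replicates 1 to 3. In TNF replicate 1 this higher share went with a Bak1 level below that of every PBS library. Within the guardians, Mcl1 held 82.4% to 85.6% in all 6 libraries, while Bcl2 held 5.05% to 7.27% in PBS and 5.70%, 2.65% and 3.78% in TNF replicates 1 to 3.

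**Figure D4:**
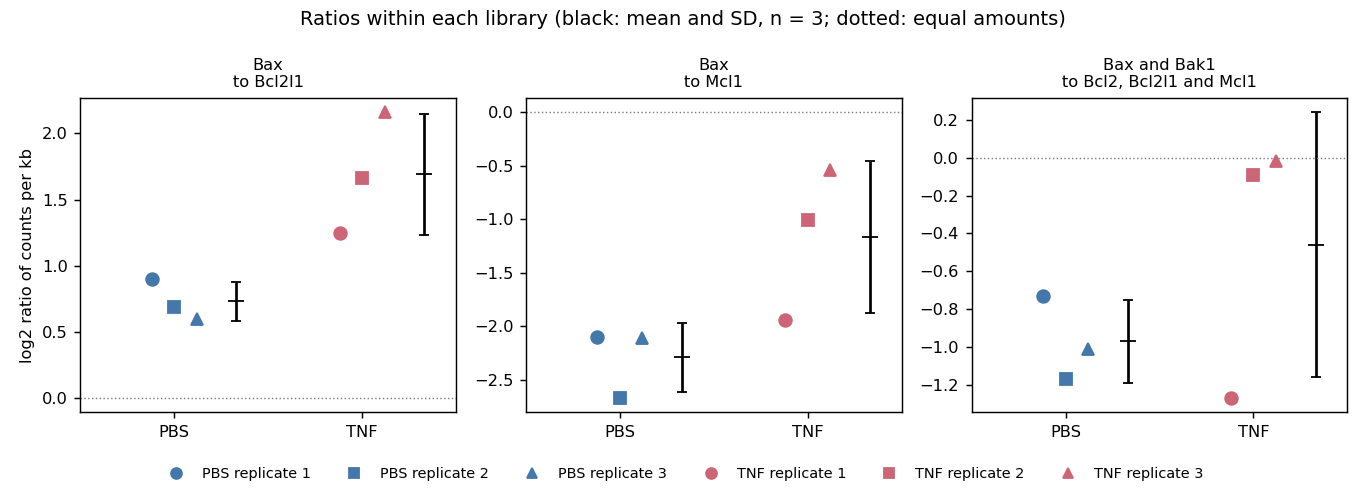
log2 ratios of counts per kb within each library for 3 pairs of transcripts or sums, with PBS in blue, TNF in red, a marker shape for each replicate, black bars for the mean and SD, and a dotted line at equal amounts. The ratio of Bax to Bcl2l1 separates the groups (0.60 to 0.90 against 1.25 to 2.16), whereas in the ratio of the sums TNF replicate 1 (-1.27) lies below PBS and TNF replicates 2 and 3 (-0.09 and -0.02) above it.

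The remaining family members were examined as a list of 18, of which 12 could be tested. Over all 6 libraries, 7 were higher and 5 lower in TNF (median log2 fold change 0.09), and 0 passed an adjusted p under 0.05. At an unadjusted p under 0.05 there were 2 higher and 1 lower, beside 8.25% and 4.00% of all genes. Bok, an effector-like member, was at 5.55, 2.60 and 3.67 CPM in PBS and at 5.18, 19.2 and 20.4 CPM in TNF (log2 fold change 1.92 with an SE of 0.51, adjusted p of 0.275 in edgeR). As with Bax, TNF replicates 2 and 3 were high, but TNF replicate 1 was inside the PBS range. Without it, Bok (log2 fold change 2.35) and Bnip3l (0.81), a mitophagy receptor, rose and Bcl2l2 (-0.70), the guardian BCL-W, fell, with edgeR adjusted p-values of 7.44e-04, 0.0247 and 0.0446 and, across every alternative, 5.13e-05 to 0.897, 0.0247 to 0.917 and 0.0446 to 0.920. In that comparison 9.10% of all genes rose and 5.40% fell. Bcl2l2 was at 41.3, 33.6 and 37.8 CPM in PBS and at 31.4, 25.4 and 20.1 CPM in TNF, with no overlap. Of all genes, 7.82% were separate and lower in this way, and 11.2% with library-size scaling, where Bcl2l2 also stayed separate. Bcl2a1a, Bcl2a1b and Hrk had 0 counts in every library, which allows up to 0.147 to 0.255 CPM when 3 counts are taken as the limit. Reads from the near-identical Bcl2a1 copies may be lost in counting, so their level is uncertain.

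The p53 list was examined because Bax, Bbc3 and Pmaip1 are p53 targets. Of 17 tested genes, 11 were higher and 6 lower in TNF (median log2 fold change 0.46), and 0 passed an adjusted p under 0.05. At an unadjusted p under 0.05 there were 7, all of them higher, beside 8.25% of all genes. With TMM scaling, every TNF library was above every PBS library for Cdkn1a (a cell cycle inhibitor), Eda2r (a member of the TNF receptor family), Phlda3 (an inhibitor of AKT), Aen (a nuclease), Perp (a desmosome protein) and, named after their values were seen, Ccng1 and Trp53inp1, beside 9.07% of all genes. Gtse1, also named afterwards, was separate and lower, beside 7.82%. Scaled by library size, Eda2r, Phlda3 and Aen remained separate and higher (3.32% of all genes), whereas Cdkn1a, Perp, Ccng1 and Trp53inp1 overlapped. Eda2r was at 5.55, 3.20 and 4.78 CPM in PBS and at 15.7, 21.7 and 9.50 CPM in TNF (log2 fold change 1.80 with an SE of 0.37, adjusted p of 0.270 in edgeR). Cdkn1a was at 39.6, 24.8 and 40.0 CPM in PBS and at 46.8, 114 and 111 CPM in TNF (log2 fold change 1.38 with an SE of 0.35, adjusted p of 0.270 in edgeR). In TNF replicate 1, Eda2r was thus as high as in the rest of its group, and Cdkn1a was close to PBS. Log2 fold changes of 3 others were 3.14 (Phlda3, with 0 counts in PBS replicate 1), 0.73 (Aen) and 1.03 (Perp). Without TNF replicate 1, 6 of 18 genes rose and 1 fell, beside 9.10% and 5.40% of all genes, the risen genes being Cdkn1a, Eda2r, Phlda3 and Perp (edgeR adjusted p 7.43e-04, 0.00860, 0.0114 and 0.00209, with upper ends of 0.897, 0.813, 0.897 and 0.897 across every alternative) and, named after their values were seen, Zmat3 and Trp53inp1. The gene that fell was Btg2 (-0.64, edgeR adjusted p 0.0497 and up to 0.991 across every alternative), also named afterwards. Trp53 itself, named after its values were seen, was at 11.8 to 23.3 CPM in PBS and 11.7 to 12.6 CPM in TNF (log2 fold change -0.42, adjusted p of 0.582 in edgeR).

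Downstream of the mitochondrion, the list of apoptosome genes and caspases had 14 higher and 7 lower genes of 21 (median log2 fold change 0.23). None passed an adjusted p under 0.05. At an unadjusted p under 0.05 there were 4 higher and 1 lower, beside 8.25% and 4.00% of all genes. Cycs, which encodes cytochrome c, was at 15.1, 15.5 and 17.2 CPM in PBS and at 23.8, 19.7 and 24.4 CPM in TNF (log2 fold change 0.51 with an SE of 0.21, adjusted p of 0.383 in edgeR). All TNF libraries were higher, replicate 1 included, beside 9.07% of all genes. This held with library-size scaling, beside 3.32% of all genes. Without TNF replicate 1, genes that rose included the NF-kB target and caspase regulator Birc3 (1.87) and the mitochondrial protease Htra2 (1.15), and 2 fell, Parp1 (-0.99) and the mitotic gene Birc5 (-1.84), the last named after its values were seen. In that comparison 9.10% of all genes rose and 5.40% fell. Over all 6 libraries these log2 fold changes were 1.46, 0.84, -0.76 and -0.48, none past an adjusted p under 0.05. Birc5 in TNF replicate 1 was above every PBS library. Without that library the edgeR adjusted p-values were 5.51e-04, 0.0114, 0.0130 and 0.0163, and over all alternatives they reached up to 0.897, 0.920, 0.915 and 0.995.

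In the death receptor list, which lies upstream of Bid, 8 of 12 genes were higher and 4 lower (median log2 fold change 0.14). None passed an adjusted p under 0.05. At an unadjusted p under 0.05 there were 2 higher and 1 lower, beside 8.25% and 4.00% of all genes. Casp8, the protease that cleaves BID, was at 29.8, 26.4 and 26.3 CPM in PBS and at 30.8, 45.3 and 40.3 CPM in TNF (log2 fold change 0.50 with an SE of 0.21, adjusted p of 0.393 in edgeR). Cflar, which encodes the caspase-8 inhibitor c-FLIP, was at 41.0, 53.9 and 47.9 CPM in PBS and at 39.0, 28.3 and 22.5 CPM in TNF (log2 fold change -0.67 with an SE of 0.24, adjusted p of 0.331 in edgeR). For both genes the groups did not overlap with TMM scaling, in opposite directions (16.9% of all genes were separate). Scaled by library size, Cflar stayed separate and Casp8 did not, with TNF replicate 1 at 24.6 CPM and PBS at 28.1 to 29.2 CPM. When TNF replicate 1 was left out, Casp8 (0.66) and the NF-kB feedback inhibitor Tnfaip3 (1.84) rose and Cflar (-0.88) fell. The edgeR adjusted p-values were 0.0380, 3.49e-04 and 0.0181, with upper ends of 0.919, 0.897 and 0.919 over all alternatives. Of all genes, 9.10% rose and 5.40% fell in that comparison.

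A list of endoplasmic reticulum (ER) and amino acid stress genes was also examined, since its ATF4 and CHOP arm can induce BH3-only genes. It also holds Ern1, Xbp1, Atf6 and Hspa5, which belong to the IRE1 and ATF6 arms. The fitted level was lower in TNF for 12 of 12 genes (median log2 fold change -0.46), with 0 past an adjusted p under 0.05. At an unadjusted p under 0.05 there were 3 lower, namely Xbp1, Atf6 and Chac1, beside 4.00% of all genes. Ddit3 (CHOP), Atf3 and Asns, named after their values were seen, had log2 fold changes of -0.42, -0.22 and -0.24, which reached 0.24, 0.26 and 0.08 under some alternative. Xbp1, a secretory cell transcription factor, was at 309, 193 and 211 CPM in PBS and at 165, 131 and 162 CPM in TNF (log2 fold change -0.64 with an SE of 0.26, adjusted p of 0.368 in edgeR). TNF replicate 1 shared this lower level. Chac1, an ATF4 and CHOP target, was at 39.9, 28.1 and 4.48 CPM in PBS and at 13.6, 1.13 and 2.34 CPM in TNF, so PBS replicate 3 was already low and the groups overlapped. Over all 6 libraries its log2 fold change was -2.11, and it lay between -3.83 and -1.54 across every alternative. Without TNF replicate 1, Hspa5 (-0.94, and -0.66 over all 6 libraries), an ER chaperone, and Chac1 (-3.83) fell, beside 5.40% of all genes. The edgeR adjusted p-values were 0.0269 and 0.00761, with upper ends of 0.920 for both over all alternatives. Genes that act on BCL-2 proteins were divided, with 10 higher and 9 lower of 19 (median log2 fold change 0.01) and 0 past an adjusted p under 0.05. At an unadjusted p under 0.05 there was 1 in each direction, beside 8.25% of all genes higher and 4.00% lower. Of these, Bag1, a partner of BCL-2, was at 90.8, 82.8 and 75.6 CPM in PBS and at 117, 133 and 127 CPM in TNF. Its groups did not overlap (log2 fold change 0.60 with an SE of 0.20, adjusted p of 0.308 in edgeR). Of all genes, 9.07% were separate and higher in this way, and 3.32% with library-size scaling, where Bag1 also stayed separate. Bag1 was the 1 gene of this list to rise without TNF replicate 1, beside 9.10% of all genes (0.67, edgeR adjusted p 0.0409, and 0.0409 to 0.897 across every alternative).

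**Figure D5:**
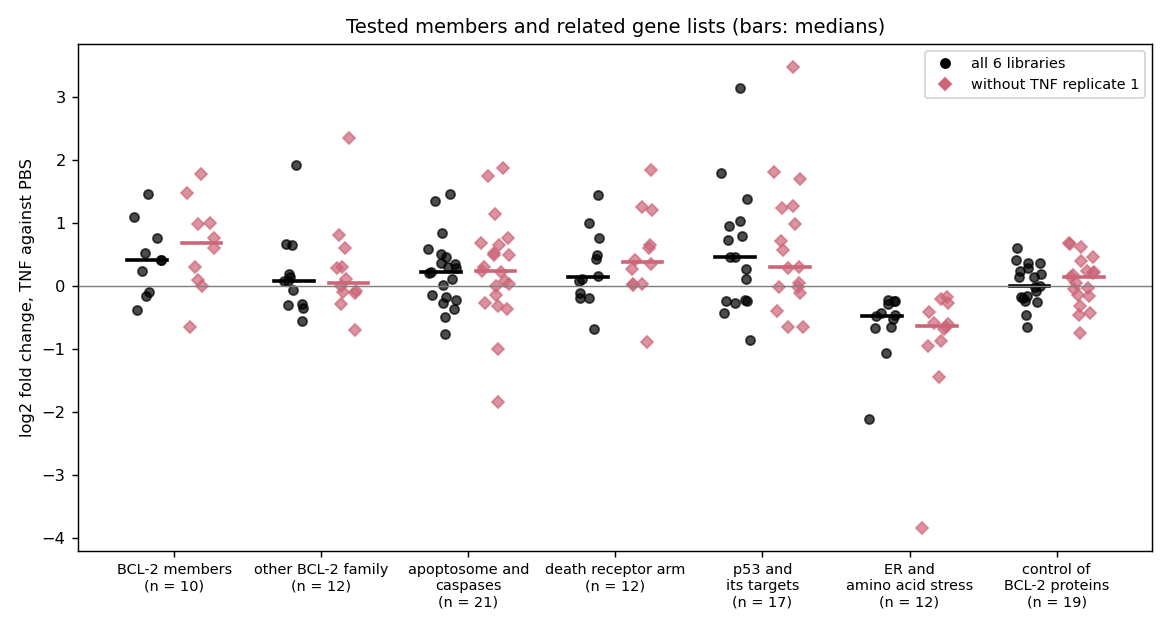
log2 fold change of TNF against PBS for the 10 members and for the members of 6 related lists tested over all 6 libraries, with all 6 libraries (black dots) and without TNF replicate 1 (red diamonds); short bars are medians over these genes. With all 6 libraries the BCL-2 members have a median of 0.41, the p53 list 0.46 and the ER and amino acid stress list -0.46, where every gene lies below 0.

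For each member, the gene with the most similar pattern over the 6 libraries was sought among 9622 tested genes outside the lists, by the root-mean-square difference of centred log2 CPM. It was Ftl1 (ferritin light chain, difference 0.13) for Bax, Elovl1 (0.07) for Bak1, Foxa2 (0.06) for Bcl2, Rab20 (0.07) for Bcl2l1 and Parg (0.03) for Mcl1. For the BH3-only genes it was Rab11fip4 (0.09) for Bid, Atp6v0b (0.07) for Bad, Uba7 (0.26) for Bik, Zc3h12a (0.09) for Bbc3 and Wdr1 (0.12) for Pmaip1. Ftl1, for example, was at 94.1, 67.7 and 93.0 CPM in PBS and at 104, 281 and 265 CPM in TNF. With so many candidates and 6 libraries, a close match to each member is a description of these libraries.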

How the data were processed

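The series holds 6 RNA-seq libraries of sorted PCs, 3 PBS and 3 TNF, grouped by the sample labels. The deposited data were 1 table of raw counts per Ensembl gene with no unused sample column. The submitters' processing notes name FastQC, Trimmomatic 0.39, STAR 2.7.10a, DESeq2 and build mm39. The counting tool, annotation release and strand setting were not given in the sources used here. Symbols, positions, transcript lengths and promoter sequence came from GENCODE vM39 and GRCm39, with 54749 of 55414 identifiers matched. A library's total limits the precision of low genes, and limits from 3 counts cover counting error only.

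TNF was compared with PBS in R 4.3.3 with edgeR 4.0.16 (filterByExpr with minimum count 10 and minimum total 15, TMM factors, two-sided quasi-likelihood test with group as the 1 term, Benjamini-Hochberg adjustment over all 13026 genes). SEs were obtained by dividing each log2 fold change by the root of its F statistic. The script was also run on simulated counts with 200 changed genes, log2 changes of 2 and a dispersion set by hand. No library was made to stand apart there, so that run does not measure what could be found in these data. As alternatives, no filter, library size alone, relative log expression (RLE) factors, DESeq2 1.42.0, limma-voom (limma 3.58.1), the replicate number as a block, and leaving out each library were run. Members and lists were chosen with earlier results of these data known. The text names all 10 members, Lyz1, Mmp7 and Olfm4 as markers, genes among the 5 smallest p-values of each list, and for each member the nearest gene whose mean log2 CPM was 2 or more. One gene of the lists is not reported here.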

Additional observations from a re-analysis of the deposited data

How the results depend on the processing

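With all 6 libraries, 0 genes, 0 BCL-2 members and 0 related list genes passed an adjusted p under 0.05 in edgeR with TMM, RLE or library-size scaling, in limma-voom and with the replicate block. In the main edgeR test, 1596 genes and 3 members had an unadjusted p under 0.05. DESeq2 gave 253 genes, 1 member (Bax) and 8 list genes, and edgeR without a low-count filter gave 690 genes, 1 member (Bax) and 10 list genes. Leaving out 1 library gave 0 to 1980 genes, 0 to 4 members and 0 to 21 list genes, in each case with calls only without TNF replicate 1. The log2 fold change changed sign when 1 library was left out for Bak1 (-0.04 to 0.77), Bid (-0.50 to 0.10), Bik (-0.11 to 0.99) and Bbc3 (-0.40 to 0.08), and for no other member under any alternative run. The cause was not tested. The ratio differences, TNF minus PBS on the log2 scale, kept their direction with every library left out. They lay at 0.72 to 1.18 for Bax to Bcl2l1, 0.82 to 1.52 for Bax to Mcl1 and 0.29 to 0.91 for the sums. For ratios of single genes the length cancels in this difference, so other lengths could not change it. For the sums it was 0.38 per kb of the union of exons and 0.35 without a length. Deviations from the group means had correlations of -0.0128, -0.0748 and 0.0311 between same-numbered PBS and TNF libraries for replicates 1 to 3. With 3 libraries per group and TNF replicate 1 apart from the others, these values cannot decide whether the numbers are pairs. The sample labels give no pairing, so none was used in the main test, and with the replicate block 0 genes passed. Bik had the fewest counts of the members, 5 to 34 per library.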
